A study of Mus musculus with 6 samples.

Results

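The core pluripotency genes were followed in mouse embryonic stem (mES) cells, chosen by name as a list of 10 of the 16668 genes that every library listed. They were *Pou5f1* (Oct4), *Sox2*, *Nanog*, *Sall4*, *Lin28a*, *Utf1*, *Dppa4*, *Dppa5a*, *Dppa2* and *Fgf4*. All 10 were above 0 in all 6 libraries and all 10 passed the filter on low values, a mean of at least 0.5 RPKM. RPKM divides the reads of a gene by its exon length and by the depth of the library, so levels can be set side by side between genes of different length.

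Pluripotency in mES cells rests on a small circuit of transcription factors, in which POU5F1 and SOX2 bind DNA together and, with NANOG, activate each other and many further genes. In 2i medium the inhibitors PD0325901 and CHIR99021 block the ERK kinase cascade and GSK3, which removes the main signal towards differentiation, and LIF supports self-renewal through STAT3. Among the targets of POU5F1 and SOX2 are *Fgf4*, which encodes the growth factor that drives ERK signalling between the cells, and *Utf1*, a chromatin-bound protein of undifferentiated cells.

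The cells were E14, a feeder-independent line of the 129/Ola background, grown on gelatin in 2i medium with LIF and collected at passages 3 to 5. All groups share this line and medium. The 6 libraries carry labels for 3 groups of 2, namely control, Ring1B-KD and Dzip3-KD. KD is a knockdown of the H2A ubiquitin ligase Ring1B (gene *Rnf2*) or Dzip3 by transfected siRNA. The controls are labelled wild type and, according to the methods, received a control siRNA. The study calls the libraries of a group biological duplicates. The labels do not say whether they came from separate cultures of this single cell line, and p-values measure only the spread between these libraries. In bulk RNA, fewer cells of a type and less RNA per cell cannot be told apart.

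For 4 of the 6 libraries the deposited file is named for another condition than the sample label gives. Files numbered 01, 02 and 03 are named control, Ring1BKD and Dzip3KD, and are labelled control 1, control 2 and Ring1B-KD 1. Files numbered 04, 05 and 06 are again named control, Ring1BKD and Dzip3KD, and carry the labels Ring1B-KD 2 for file 04 and Dzip3-KD 1 and 2 for files 05 and 06. *Rnf2* was at 30.6, 20.4 and 26.8 RPKM in files 01 to 03 and at 28.8, 19.4 and 28.2 RPKM in files 04 to 06, so that it was lowest in the files named Ring1BKD and not in the libraries labelled Ring1B-KD. *Dzip3* was at 2.24, 2.68 and 1.18 RPKM in files 01 to 03 and at 1.89, 1.70 and 1.31 RPKM in files 04 to 06, and was lowest in the files named Dzip3KD, although on only 23 to 53 reads. Groups were tested by label throughout, and values by file name are given as a description. Names such as control 1 or Ring1B-KD 2 stand for the label and do not assert a knockdown in that library.

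Depth recovered from the steps of the RPKM values was 3015349 to 3583612 mapped reads per library, and 2096 to 2622 genes were listed at 0 in a library. Log2 levels correlated across genes at 0.960 to 0.974 within files 01 to 03 or 04 to 06 and at 0.940 to 0.957 between these runs of file numbers. Both libraries labelled control lie in files 01 to 03 and both labelled Dzip3-KD in files 04 to 06, so this label contrast and the run of file numbers cannot be told apart.

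The RefSeq promoter windows (GRCm38.p6, 250 bases before to 50 after each start site) held 6 of the 10 genes, *Pou5f1*, *Sox2*, *Nanog*, *Lin28a*, *Utf1* and *Fgf4*. They were searched on both strands for the octamer core ATGCAAA, the letters CATTGT, and the composite of CATTGT, 1 base and ATGCAAA, of which the first is the letters bound by POU factors and the second those bound by SOX factors. The *Nanog* and *Fgf4* windows are shown because these genes tracked each other most closely over the 6 libraries. In the *Nanog* window on the plus strand, chr6:122707239-122707538, capitals mark the composite motif, which reads on the minus strand 75 to 62 bases before the start site. The *Fgf4* window, chr7:144861136-144861435 on the plus strand, held none of these letters. Sequence outside the windows was not searched.

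Nanog: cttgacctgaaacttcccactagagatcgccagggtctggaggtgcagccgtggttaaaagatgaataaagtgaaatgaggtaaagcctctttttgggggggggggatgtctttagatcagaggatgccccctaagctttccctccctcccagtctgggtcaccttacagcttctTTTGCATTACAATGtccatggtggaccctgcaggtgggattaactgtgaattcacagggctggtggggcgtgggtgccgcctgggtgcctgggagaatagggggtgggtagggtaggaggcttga
Fgf4: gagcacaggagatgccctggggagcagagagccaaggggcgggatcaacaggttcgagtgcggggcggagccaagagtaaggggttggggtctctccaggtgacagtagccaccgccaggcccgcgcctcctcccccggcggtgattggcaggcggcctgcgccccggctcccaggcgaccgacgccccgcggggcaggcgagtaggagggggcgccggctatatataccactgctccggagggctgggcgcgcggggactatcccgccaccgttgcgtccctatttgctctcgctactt

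The composite was in 2 of 32851 promoter windows (0.00609%), and both were windows of *Nanog* start sites. These windows overlap (chr6:122707239-122707538 and chr6:122707315-122707614) and hold the same stretch, so it was counted in each of them. ATGCAAA was in 4.63% of the windows, and in that of *Sox2* it lay 99 to 93 bases before the start site. CATTGT was in 12.6% of the windows, with a match in *Lin28a* and in the second window of *Pou5f1*. The composite holds both shorter motifs. A match is a description of the letters and not a site of binding.

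To determine how strongly the circuit was expressed, levels were ranked by their mean over the 6 libraries. *Dppa5a*, which encodes a KH-domain RNA-binding protein of early embryo and stem cells, was highest with a mean of 510.0 RPKM and rank 11 among all genes, and *Lin28a* was lowest with 7.13 RPKM and rank 4208. The highest member mean was 71.5-fold the lowest. *Pou5f1* (rank 25), *Nanog* (rank 38) and *Sox2* (rank 67) followed *Dppa5a*, then *Fgf4* (rank 229), *Utf1* (rank 420), *Sall4* (rank 648), *Dppa2* (rank 1948) and *Dppa4* (rank 2962). The ranges over the libraries did not overlap between *Nanog* and *Sox2*, between *Sox2* and *Fgf4*, or between *Sall4* and *Dppa2*, which divides the order into 4 steps. Within each step neighbours overlapped in range, although *Dppa5a* lay above *Pou5f1* and *Pou5f1* above *Nanog* in 6 of 6 libraries, and *Fgf4* lay above *Utf1* in 3 of the 6 libraries only. The 10 genes together held 0.859% to 1.17% of the RPKM of a library.

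**Figure D1:**
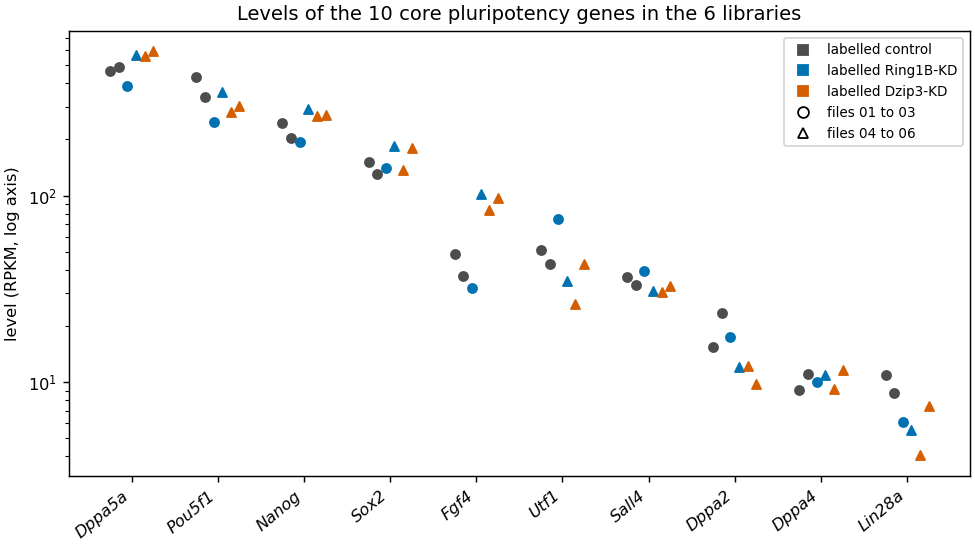
Level of each of the 10 genes in the 6 libraries, in RPKM on a log axis, ordered by mean. Colours give the sample label and shapes the run of file numbers. Each point is 1 library. *Dppa5a* (385 to 592 RPKM) and *Lin28a* (4.05 to 10.9 RPKM) mark the ends of the order.

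*Pou5f1*, at chr17:35642982-35647721 (mm9, plus strand), encodes the POU factor without which the inner cell mass loses pluripotency. It measured 433 and 339 RPKM in control 1 and 2, 248 and 357 RPKM in Ring1B-KD 1 and 2, and 279.6 and 302 RPKM in Dzip3-KD 1 and 2. Both libraries labelled Dzip3-KD lay below both controls, whereas those labelled Ring1B-KD overlapped the controls. The values rest on 1206 to 1883 reads. The log2 change of RPKM + 1 was -0.36 (SE 0.22, limma adjusted p 0.904) for Ring1B-KD and -0.40 (SE 0.22, limma adjusted p 0.488) for Dzip3-KD, so neither passed the threshold.

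*Sox2*, the HMG-box partner of POU5F1, is a single-exon gene at chr3:34548927-34551383 (mm9, plus strand). It measured 151 and 131 RPKM in control 1 and 2, 141 and 184 RPKM in Ring1B-KD 1 and 2, and 137 and 180.3 RPKM in Dzip3-KD 1 and 2. The groups overlapped, and the libraries of files 04 and 06 were highest. On the log2 scale the change was 0.20 (SE 0.21, limma adjusted p 0.940) for Ring1B-KD and 0.16 (SE 0.21, limma adjusted p 0.759) for Dzip3-KD.

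*Nanog*, the homeobox factor that lets mES cells self-renew without LIF when overexpressed, lies at chr6:122657507-122664651 (mm9, plus strand). Its level reached 246 and 204 RPKM in control 1 and 2, 194 and 291 RPKM in Ring1B-KD 1 and 2, and 266 and 271 RPKM in Dzip3-KD 1 and 2. The 3 libraries of files 04 to 06 were all above those of files 01 to 03, and Ring1B-KD 1 and 2 were the lowest and the highest of the 6. Its log2 change came to 0.09 (SE 0.22, limma adjusted p 0.982) for Ring1B-KD and 0.26 (SE 0.22, limma adjusted p 0.636) for Dzip3-KD. *Nanog* and *Pou5f1* have processed pseudogenes in the mouse genome, and since only uniquely assigned reads were used, reads shared with such copies may be missing from these values.

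*Sall4*, a zinc-finger factor that binds POU5F1 and keeps its gene active, lies at chr2:168573832-168593443 (mm9, minus strand). It measured 36.4 and 33.0 RPKM in control 1 and 2, 39.3 and 30.8 RPKM in Ring1B-KD 1 and 2, and 30.2 and 32.7 RPKM in Dzip3-KD 1 and 2. It was among the steadiest of the 10 genes, with a coefficient of variation over the libraries of 10.4%. In the fit the log2 change was 0.01 (SE 0.18, limma adjusted p 1.00) for Ring1B-KD, with a 95% interval from -0.41 to 0.42, and -0.14 (SE 0.18, limma adjusted p 0.765) for Dzip3-KD, with an interval from -0.55 to 0.28.

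**Figure D2:**
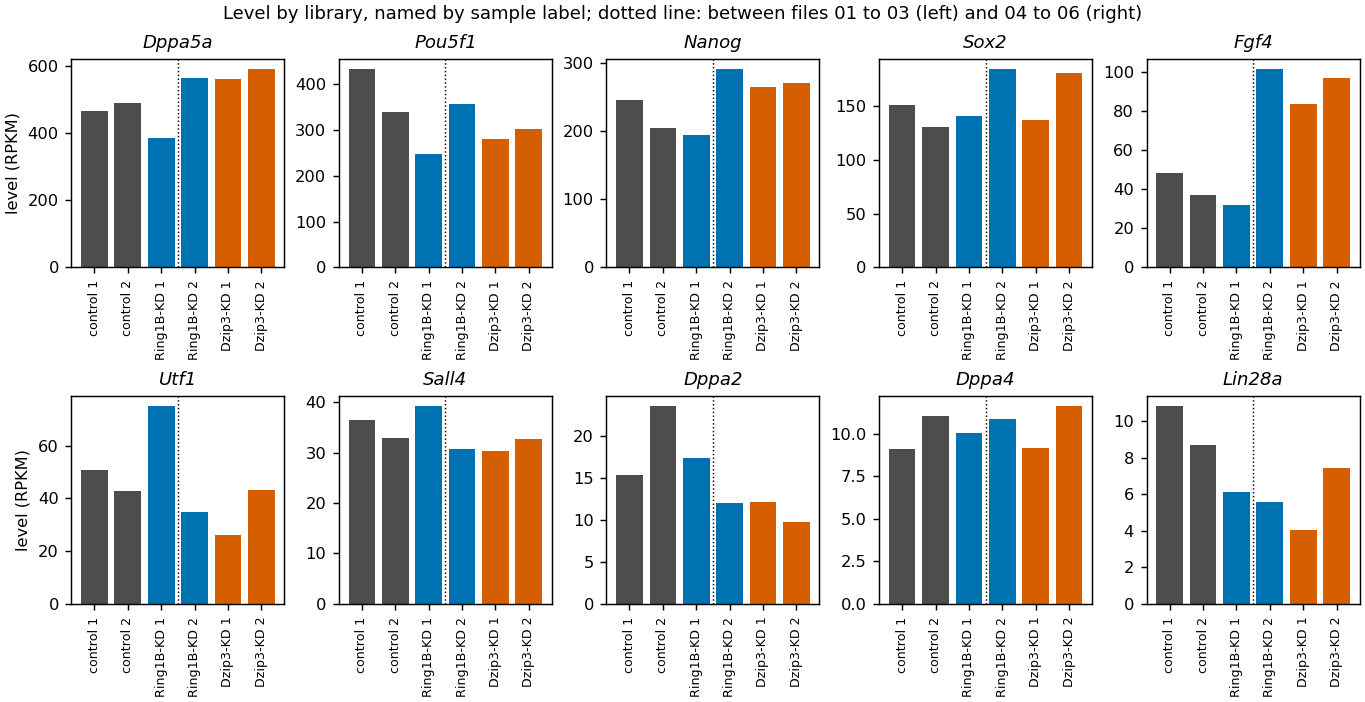
Level of each gene by library, in RPKM, with bars from 0, 1 bar per library coloured by label (grey control, blue Ring1B-KD, orange Dzip3-KD). Bars left of the dotted line are files 01 to 03 and those right of it files 04 to 06. *Fgf4* is at 32.0 to 48.5 RPKM on the left and 83.3 to 101 RPKM on the right.

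Over the 6 libraries the coefficients of variation were 46.5% for *Fgf4* and 36.9% for *Utf1*. They were 34.1% for *Lin28a*, 33.1% for *Dppa2*, 20.0% for *Pou5f1*, 15.8% for *Nanog* and 14.9% for *Sox2*. The value of *Fgf4* includes the difference between the runs of file numbers. Within files 01 to 03 and 04 to 06 its SD was 8.43 and 9.37 RPKM around means of 39.2 and 93.8 RPKM. That of *Pou5f1* was 92.5 and 39.8 RPKM around 340 and 313 RPKM. *Fgf4*, at chr7:152047291-152051148 (mm9, plus strand), measured 48.5 and 37.2 RPKM in control 1 and 2, 32.0 and 101 RPKM in Ring1B-KD 1 and 2, and 83.3 and 96.6 RPKM in Dzip3-KD 1 and 2. The duplicates labelled Ring1B-KD thus stood at opposite ends of the range, and their difference was 1.64 on the log2 scale. All 3 libraries of files 04 to 06 were above all 3 of files 01 to 03. The log2 change was 0.42 (SE 0.43, limma adjusted p 0.939) for Ring1B-KD and 1.06 (SE 0.43, limma adjusted p 0.393) for Dzip3-KD.

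*Utf1*, also on chromosome 7 at chr7:147129688-147131011 (mm9, plus strand), measured 50.9 and 42.7 RPKM in control 1 and 2, 75.1 and 35.0 RPKM in Ring1B-KD 1 and 2, and 26.1 and 43.1 RPKM in Dzip3-KD 1 and 2. The library labelled Ring1B-KD 1, in the file named Dzip3KD, was highest, and the groups overlapped. On the log2 scale the change was 0.14 (SE 0.35, limma adjusted p 0.982) for Ring1B-KD and -0.46 (SE 0.35, limma adjusted p 0.589) for Dzip3-KD. These values rest on 99 to 294 reads.

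*Lin28a* encodes the RNA-binding protein that blocks maturation of let-7 microRNAs, and lies at chr4:133559245-133574756 (mm9, minus strand). It measured 10.9 and 8.71 RPKM in control 1 and 2, 6.13 and 5.56 RPKM in Ring1B-KD 1 and 2, and 4.05 and 7.46 RPKM in Dzip3-KD 1 and 2. All 4 libraries with a knockdown label were below both controls. Its log2 change came to -0.65 (SE 0.26, limma adjusted p 0.902) for Ring1B-KD and -0.72 (SE 0.26, limma adjusted p 0.362) for Dzip3-KD. These values rest on 46 to 114 reads.

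*Dppa2* and *Dppa4* encode SAP-domain proteins that act as a pair on chromatin and prime developmental promoters. They are neighbours on the plus strand of chromosome 16, *Dppa4* from 48283848 to 48294405 and *Dppa2* from 48310590 to 48319836 (mm9), 16.2 kb apart. *Dzip3* lies 604.5 kb beyond *Dppa2*. *Dppa2* measured 15.4 and 23.6 RPKM in control 1 and 2, 17.4 and 12.0 RPKM in Ring1B-KD 1 and 2, and 12.1 and 9.78 RPKM in Dzip3-KD 1 and 2, and the latter lay below both controls. *Dppa4* was at 9.08 and 11.0 RPKM, at 10.05 and 10.8 RPKM, and at 9.18 and 11.6 RPKM in the same order, and its groups overlapped. Over the 6 libraries, which the points share, the levels of the neighbours correlated at -0.10. The log2 change of *Dppa2* was -0.38 (SE 0.26, limma adjusted p 0.909) for Ring1B-KD and -0.75 (SE 0.26, limma adjusted p 0.330) for Dzip3-KD. That of *Dppa4* was 0.06 and 0.04 (SE 0.20 each, limma adjusted p 0.989 and 0.940). Reads per library were 68 to 157 for *Dppa2* and 42 to 64 for *Dppa4*.

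*Dppa5a*, at chr9:78214859-78215984 (mm9, minus strand), measured 466 and 490.0 RPKM in control 1 and 2, 385 and 565 RPKM in Ring1B-KD 1 and 2, and 562 and 592 RPKM in Dzip3-KD 1 and 2. Dzip3-KD 1 and 2 exceeded both controls, and the libraries labelled Ring1B-KD lay on either side. In the fit the log2 change was -0.03 (SE 0.22, limma adjusted p 0.992) for Ring1B-KD and 0.27 (SE 0.22, limma adjusted p 0.603) for Dzip3-KD.

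To compare the labelled groups over the whole list, the member rows were read from the limma fit over 11538 genes with Benjamini-Hochberg adjustment. For Ring1B-KD against control, 0 members and 0 genes in all (0%) passed an adjusted p of 0.05, and 1 member, *Lin28a*, had an unadjusted p under 0.05 beside 589 of all genes (5.10%). The median log2 change was 0.03 over the members and -0.02 over all genes. Both libraries lay above both controls for 0 members (14.9% of all genes) and below them for 1 member (18.9% of all genes).

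For Dzip3-KD against control, again 0 members and 0 genes (0%) passed, the smallest adjusted p over all genes being 0.254. *Dppa2* and *Lin28a*, which were lower, and *Fgf4*, which was higher, had an unadjusted p under 0.05, 3 members beside 1411 of all genes (12.2%). Both libraries lay above both controls for 3 members, *Dppa5a*, *Nanog* and *Fgf4* (20.4% of all genes), and below them for 4, *Pou5f1*, *Sall4*, *Dppa2* and *Lin28a* (30.3% of all genes). The median log2 change was -0.05 over the members and -0.07 over all genes. The 2 knockdown labels were compared with the same controls.

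For Dzip3-KD against Ring1B-KD, 0 members and 0 genes (0%) passed, and 0 members had an unadjusted p under 0.05 beside 534 of all genes (4.63%). Member changes ran from -0.60 (*Utf1*) to 0.64 (*Fgf4*) with a smallest adjusted p of 0.864, and the libraries of the labels overlapped for all 10 members, where 12.6% of all genes lay wholly above and 20.4% wholly below. The 95% interval of the difference was -0.54 to 0.48 for *Pou5f1*, -0.51 to 0.45 for *Sox2* and -0.33 to 0.68 for *Nanog*, so differences of that size were not excluded by these libraries.

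**Figure D3:**
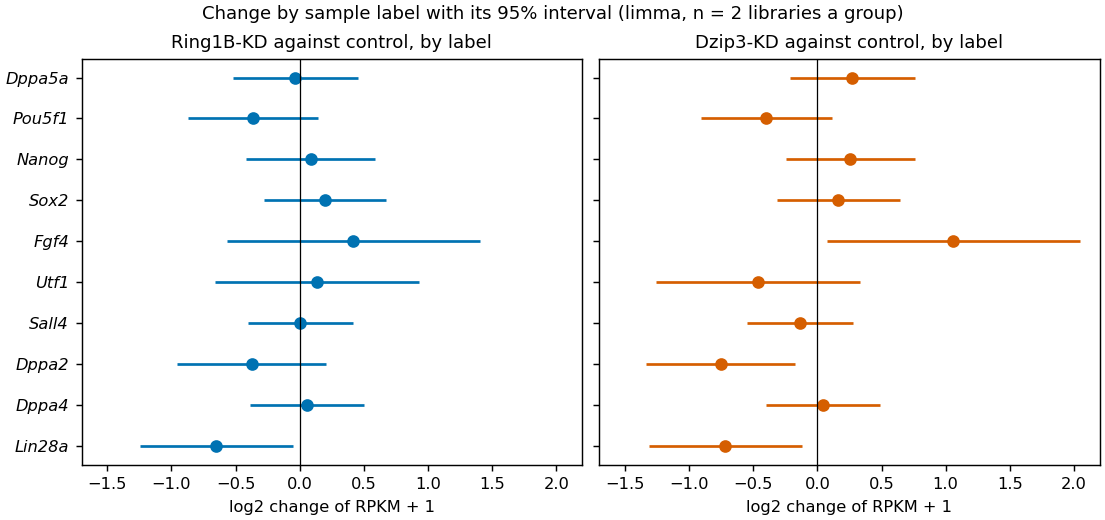
Log2 change of RPKM + 1 against the libraries labelled control, for each gene, with its 95% interval from limma (n = 2 libraries a group). The interval leaves 0 for *Lin28a* on the left and for *Fgf4*, *Dppa2* and *Lin28a* on the right, before adjustment over 11538 genes. None passed after it.

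The run of file numbers was then compared, since it divides the libraries as the correlations do. *Fgf4* was 39.2 ± 8.43 RPKM (SD, n = 3) in files 01 to 03 and 93.8 ± 9.37 RPKM (SD, n = 3) in files 04 to 06, a ratio of 2.39 and a log2 difference of 1.25. Of 3066 genes that averaged 10 RPKM or more, 12 (0.39%) had a larger difference between the runs. *Nanog* and *Dppa5a* were also higher in all 3 libraries of files 04 to 06, each by 1.28-fold, which makes 3 members beside 13.1% of all genes. *Dppa2* (ratio 0.602) and *Sall4* (ratio 0.862) were lower in all 3, which makes 2 members beside 15.5% of all genes. The other 5 overlapped, with a log2 difference of -0.67 for *Utf1*, -0.52 for *Lin28a*, 0.24 for *Sox2*, -0.09 for *Pou5f1* and 0.06 for *Dppa4*. The median was -0.01 over the members and -0.04 over all genes.

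Within a run, the label values of several members differed from the pooled ones. In files 01 to 03, Ring1B-KD 1 minus the controls was -0.63 for *Pou5f1*, -0.21 for *Nanog*, -0.40 for *Fgf4* and 0.68 for *Utf1* on the log2 scale. In files 04 to 06, the libraries labelled Dzip3-KD minus Ring1B-KD 2 gave -0.30 for *Pou5f1*, -0.12 for *Nanog*, -0.18 for *Fgf4* and -0.06 for *Utf1*. *Dppa2* (-0.12 and -0.13) and *Lin28a* (-0.59 and -0.0070) were below 0 in either contrast, as were *Pou5f1*, *Nanog* and *Fgf4*. These contrasts compare different labels, and the share of all genes below 0 in either was not counted. With the run of file numbers as a block, the log2 change of *Pou5f1* was -0.63 for Ring1B-KD and -0.92 for Dzip3-KD. That of *Fgf4* for Dzip3-KD turned to -0.57, and that of *Dppa2* for Dzip3-KD shrank to -0.25. In that fit the Ring1B-KD value is that of Ring1B-KD 1 minus the controls, given above. Dzip3-KD reaches control there only through the libraries labelled Ring1B-KD.

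**Figure D4:**
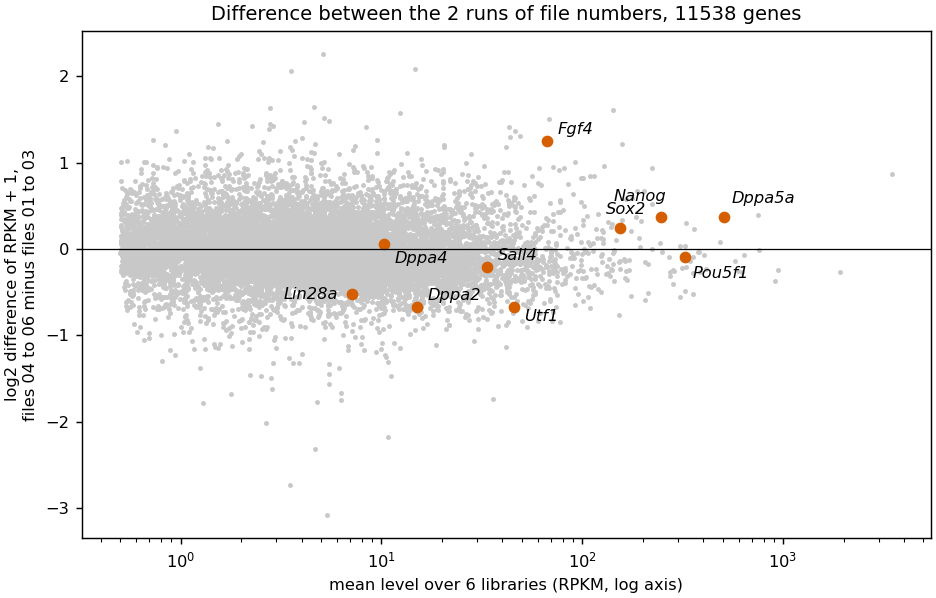
Difference between the runs of file numbers (files 04 to 06 minus files 01 to 03, log2 of RPKM + 1) against mean level in RPKM on a log axis, for 11538 genes in grey and the 10 members in orange. *Fgf4*, at 1.25, lies near the upper edge of genes of its level, and *Utf1* and *Dppa2*, both at -0.67, lie below the bulk.

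To describe the values by the condition word in the file name, each file named Ring1BKD or Dzip3KD was set against the file named control of its own run, 1 library against 1, with no test. Both comparisons of a run use the same file named control. The intervals given are 95% intervals for counting error only. They were taken from the ratio of reads at the depths of the libraries, without the 1 added to RPKM. For low genes such as *Lin28a* that ratio lies further from 0 on the log2 scale than the difference printed. For Ring1BKD these are the libraries labelled control 2 against control 1 in files 01 to 03, and Dzip3-KD 1 against Ring1B-KD 2 in files 04 to 06. *Pou5f1* was lower by a log2 difference of -0.35 (-0.45 to -0.25) in the first run and -0.35 (-0.46 to -0.25) in the second. *Sox2* gave -0.20 (-0.33 to -0.08) and -0.42 (-0.54 to -0.31), and *Nanog* -0.27 (-0.37 to -0.17) and -0.13 (-0.22 to -0.05). *Fgf4* gave -0.37 (-0.58 to -0.18) and -0.28 (-0.42 to -0.15).

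The intervals of these 4 genes lay below 0 in both runs. Such intervals narrow as reads rise, and the share of all genes for which this held was not counted. *Utf1*, *Lin28a* and *Sall4* were also lower in both runs, with intervals that reached 0 in at least 1 of them, so that 7 of 10 members were lower in both beside 40.6% of all genes tested. *Dppa2* was higher in both, by 0.59 (0.23 to 1.01) and 0.02 (-0.46 to 0.49), beside 18.5% of all genes. *Dppa5a* and *Dppa4* turned direction between the runs. A difference over 1.5-fold in the same direction in both runs was reached by 0 members, higher (1.45% of all genes) or lower (0.797%). The median over all genes was -0.06 and -0.11 in the 2 runs as deposited, and 0.06 and 0.01 after scaling to a common 75th percentile. On that scale *Pou5f1* was at -0.21 and -0.21 and *Sox2* at -0.06 and -0.28, *Nanog* turned to 0.01 and *Sall4* to above 0 in the second run, and 5 members were lower and 2 higher in both runs, beside 22.9% and 33.1% of all genes.

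For Dzip3KD the libraries are those labelled Ring1B-KD 1 against control 1 in files 01 to 03, and Dzip3-KD 2 against Ring1B-KD 2 in files 04 to 06. *Pou5f1* was lower by -0.80 (-0.91 to -0.70) in the first run and by -0.24 (-0.34 to -0.14) in the second, and *Nanog* by -0.34 (-0.44 to -0.24) and -0.10 (-0.19 to -0.02). *Utf1* was higher, by 0.55 (0.29 to 0.84) and 0.29 (-0.03 to 0.63). *Lin28a* was at -0.73 (-1.27 to -0.39) in the first run and 0.37 (-0.05 to 0.90) in the second.

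*Pou5f1* and *Nanog*, which are among the members with the most reads, had an interval below 0 in both runs. Counting intervals narrow as reads rise, and the share of all genes with such intervals was not counted. *Fgf4* was at -0.59 (-0.81 to -0.39) and -0.07 (-0.20 to 0.06), and *Sox2* at -0.10 and -0.03, where scaling to the 75th percentile turned the first *Sox2* value to 0.02. In all, 4 members were lower in both runs (*Pou5f1*, *Nanog*, *Fgf4* and *Sox2*) beside 29.5% of all genes, and 3 were higher (*Utf1*, *Sall4* and *Dppa4*) beside 22.3%. Over 1.5-fold in the same direction in both runs there were 0 members, higher (0.468% of all genes) or lower (0.390%). On the 75th percentile scale *Pou5f1* was at -0.69 and -0.22 and *Nanog* at -0.22 and -0.08.

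**Figure D5:**
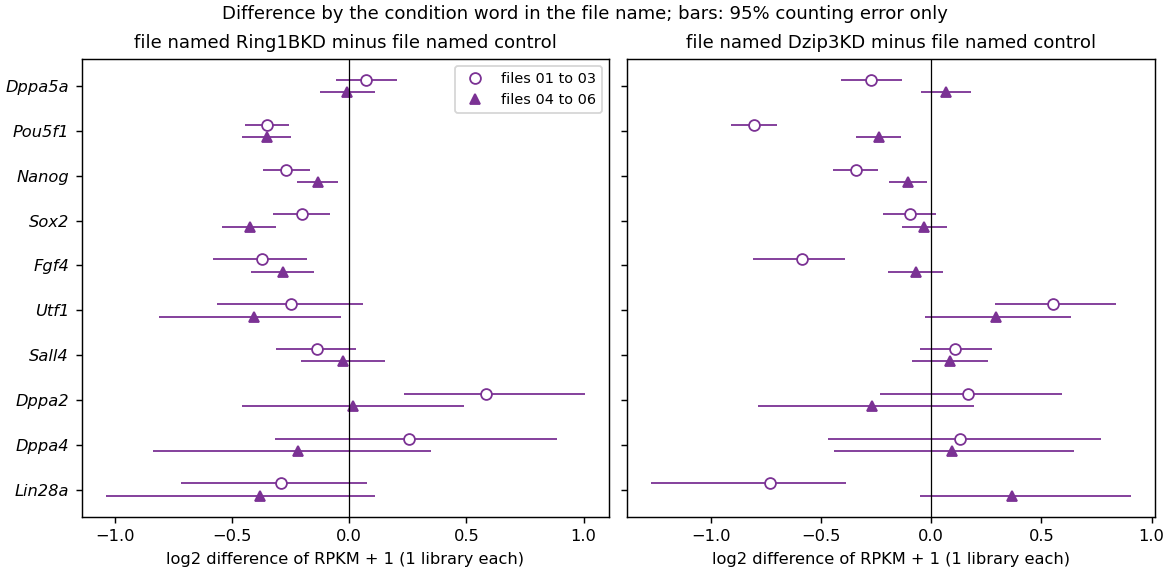
Log2 difference of RPKM + 1 between the file named Ring1BKD (left) or Dzip3KD (right) and the file named control of the same run, open circles for files 01 to 03 and filled triangles for files 04 to 06, with 95% bars for counting error only. The bars are those of the ratio of reads, without the added 1. *Pou5f1* is below 0 in all 4 comparisons, from -0.80 to -0.24, and stays there after scaling to the 75th percentile.

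Over the 6 libraries, *Nanog* and *Fgf4* correlated most closely among the members (Pearson r 0.96, and 0.96 after removal of the run means), followed by *Utf1* and *Sall4* (0.96 and 0.91). *Pou5f1* and *Nanog* correlated at 0.33, and at 0.93 after removal of the run means, and *Pou5f1* and *Fgf4* at 0.11 and 0.96. These points share libraries and their depth and are few, so the values are a description. Among 3057 other genes that averaged 10 RPKM or more, the pattern most like that of *Pou5f1* over the 6 libraries was that of *Plaa* (r 0.99), *Sept9* (r 0.98) and *Srsf1* (r 0.98).

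Genes that work with the members were read from further lists, in which 0 genes passed the adjusted threshold in any contrast. Of 15 tested genes of the FGF and ERK pathway, downstream of *Fgf4*, 1 was higher and 6 were lower at an unadjusted p under 0.05 for Dzip3-KD, with a median log2 change of -0.27. Of all genes tested, 5.24% were higher and 6.99% lower by this measure (12.2% in all), with a median of -0.07, which is the background for each list. *Etv4*, an ETS factor induced by ERK, was at 16.9, 13.6 and 14.1 RPKM in files 01 to 03 and at 8.03, 4.46 and 5.26 RPKM in files 04 to 06, and *Spry2*, a feedback inhibitor of the pathway, at 31.0, 30.7 and 24.0 RPKM and at 13.5, 16.4 and 15.1 RPKM. Both were thus lower in the 3 libraries in which *Fgf4* was higher, with a log2 change for Dzip3-KD of -1.47 (SE 0.26, limma adjusted p 0.254) for *Etv4* and -0.93 (SE 0.25, limma adjusted p 0.302) for *Spry2*. The receptor *Fgfr1* (0.41) and the kinase *Mapk3* (0.17) had the highest log2 changes among the genes of the list that averaged 5 RPKM or more. This contrast of labels coincides with the run of file numbers, and the part of the run in these values cannot be told apart.

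Of 26 genes of the wider pluripotency network, 0 were higher and 4 lower at an unadjusted p under 0.05 for Dzip3-KD, with a median of -0.14, beside 12.2% and -0.07 for all genes. Among those averaging 5 RPKM or more, the ends of this list were *Tdgf1*, a Nodal co-receptor (0.54), *Sall1* (0.52), *Stat3*, which relays the LIF signal (-0.74), and *Nr0b1* (-0.77). Of 14 genes of the Lin28 and let-7 pathway, 0 were higher and 2 lower (median -0.26, beside 12.2% and -0.07), from *Mycn* at 0.59 and *Dgcr8* at 0.07 to *Hmga1* at -0.46 and *Hmga2*, a let-7 target, at -0.65. Of 15 partners of SALL4 and POU5F1, mostly subunits of the NuRD complex, 0 were higher and 2 lower (median -0.30, beside 12.2% and -0.07), from *Mta1* at 0.32 and *Gatad2b* at -0.04 to *Rbbp7* at -0.62 and *Smarca4* at -0.64. These are log2 changes for Dzip3-KD, with adjusted p of 0.254 or more.

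Most markers of other cell types were low, but *Tubb3*, a neuronal tubulin, averaged 19.8 RPKM and *Tfap2c*, a trophectoderm factor, 8.79 RPKM, both above *Lin28a*. Summed levels per library were 4.61 to 7.02 RPKM for the 9 listed of 10 primitive endoderm markers, 12.9 to 18.8 RPKM for 8 of 9 trophectoderm markers, 19.9 to 39.9 RPKM for 10 of 10 mesoderm and neural markers and 1.67 to 3.42 RPKM for 5 of 8 fibroblast markers. By label, the sums for control, Ring1B-KD and Dzip3-KD were 6.45 to 6.59, 4.61 to 7.02 and 4.74 to 5.35 RPKM for primitive endoderm. They were 13.6 to 17.0, 12.9 to 14.8 and 12.9 to 18.8 RPKM for trophectoderm, and 1.67 to 2.04, 2.49 to 3.42 and 2.32 to 2.58 RPKM for fibroblasts. Mesoderm and neural markers summed to 28.8 and 19.9 RPKM in control 1 and 2, to 21.6 and 39.9 RPKM in Ring1B-KD 1 and 2, and to 28.1 and 36.1 RPKM in Dzip3-KD 1 and 2. Of their 4 tested genes, 2 were higher and 0 lower at an unadjusted p under 0.05 for Dzip3-KD (median log2 change 0.57). Of all genes, 5.24% were higher and 6.99% lower, with a median of -0.07. The part of these markers in the values of the 10 members was not tested. Of these markers, *Gata6*, *Sox17*, *Cdx2* and *T* were each at 0 in at least 1 library and below 1 RPKM in all. Others were above 0 in all 6 libraries, among them *Gata4* (0.164 to 0.713 RPKM), *Eomes* (0.896 to 1.87 RPKM) and *Lama1* (3.09 to 3.96 RPKM). The 10 listed of 13 genes of the two-cell-like state, a rare state of mES cells, summed to 93.3 to 564 RPKM and were highest in both files named Ring1BKD, at 564 and 438 RPKM, and their part in the values of the 10 genes was not tested.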

How the data were processed

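The authors deposited RPKM values for 1 library per file. According to their methods, stranded mRNA libraries were aligned to mm9 and reads mapped uniquely to a gene were divided by exon length and total mapped reads. RPKM does not correct for a change in RNA composition. Software versions are not given in the sources used here. Whole reads were recovered from the steps of the RPKM values: at the depth found, 98.6% of 2054 genes whose steps could be read gave an exon length within 0.06 bp of a whole number, against a median of 12.0% at other depths. Intervals from these reads cover counting error only.

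The 10 members and the further gene lists were chosen with earlier results of these data known. Labels were tested in R 4.3.3 by limma 3.58.1 with a mean-variance trend. Values entered as log2(RPKM + 1), for 11538 genes averaging 0.5 RPKM or more, with all 6 libraries in 1 fit, with Benjamini-Hochberg adjustment and a threshold of 0.05. Such fold changes understate the change of low genes. Groups came from the sample labels and no library was left out. The code was tested on simulated data. Named genes were all members, *Rnf2*, *Dzip3*, the 2 highest and 2 lowest changes for Dzip3-KD in each list at a mean of 5 RPKM or more, and the 3 genes most like *Pou5f1*. *Gata6*, *Gata4*, *Sox17*, *Lama1*, *Cdx2*, *Eomes*, *T*, *Nes*, *Sox1*, *Krt8* and *Ascl2* were named after their values were seen. Positions are from GENCODE M1 on mm9 and promoters from RefSeq on GRCm38.p6. Alternatives were a pseudocount of 0.1, no filter, 75th percentile scaling, only the 4 libraries compared, no moderation, blocks and leaving out each library.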

Additional observations from a re-analysis of the deposited data

How the results depend on the processing

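Members changed stayed at 0 in each contrast under every alternative planned, and genes changed at 0 where Ring1B-KD entered a contrast. For Dzip3-KD against control the count of genes went from 0 to 1 with the replicate block, to 24 with only the 4 libraries compared, and to between 0 and 27 on leaving out a library (25 without Ring1B-KD 1 and 27 without Ring1B-KD 2). The replicate numbers only name the libraries: same-numbered libraries deviated together at r -0.04, -0.24 and 0.04 for the 3 pairs of labels. A crossed replicate block on the 4 libraries, chosen after seeing the data, gave 182 of 11538 genes and 1 member, *Fgf4*. It paired control 1 with Dzip3-KD 2 and control 2 with Dzip3-KD 1. The contrast still coincides with the run of file numbers, so the part of the run in this call cannot be told apart. Of 260 alternative values of single members by label, 239 kept direction and side of the threshold and 21 turned direction. With the file-number block, Ring1B-KD gave -0.21 for *Nanog* and -0.40 for *Fgf4*, which are the values of Ring1B-KD 1 minus the controls. In the same fit Dzip3-KD gave -0.22 for *Sox2*, -0.33 for *Nanog*, 0.21 for *Sall4*, 0.62 for *Utf1*, -0.058 for *Dppa4*, -0.28 for *Dppa5a* and -0.57 for *Fgf4*. On leaving out a library, Ring1B-KD ran from -0.21 to 0.38 for *Nanog*, -0.17 to 0.18 for *Sall4*, -0.41 to 0.68 for *Utf1*, -0.072 to 0.18 for *Dppa4*, -0.31 to 0.24 for *Dppa5a* and -0.40 to 1.24 for *Fgf4*, and Dzip3-KD from -0.033 to 0.36 for *Sox2* and -0.11 to 0.20 for *Dppa4*. Other values kept direction but moved by over 1.5 times. For Ring1B-KD, *Pou5f1* was at -0.10 without Ring1B-KD 1, -0.19 without control 1 and -0.63 without Ring1B-KD 2, *Sox2* at 0.0032 without Ring1B-KD 2, 0.096 without control 2, 0.30 without control 1 and 0.39 without Ring1B-KD 1, and *Dppa2* at -0.082 without control 2, -0.12 without Ring1B-KD 2, -0.63 without Ring1B-KD 1 and -0.67 without control 1. For Dzip3-KD, *Pou5f1* was at -0.22 without control 1, *Nanog* at 0.12 without control 2 and 0.39 without control 1, *Sall4* at -0.068 without control 1, -0.083 without Dzip3-KD 1 and -0.21 without control 2, *Lin28a* at -0.34 without Dzip3-KD 1 and -1.09 without Dzip3-KD 2, *Utf1* at -0.11 without Dzip3-KD 1 and -0.81 without Dzip3-KD 2, and *Dppa2* at -0.46 without control 2. The cause of these turns was not tested. By file name, 69 of 80 values moved by less than their counting interval and 11 by more. Depth limits *Dppa4* (42 to 64 reads), *Lin28a* (46 to 114 reads) and *Dppa2* (68 to 157 reads) most.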

Other observations

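Of 9 tested markers of the primed epiblast, the state that follows naive pluripotency, 1 was higher and 1 lower at an unadjusted p under 0.05 for Dzip3-KD against control by label, with a median log2 change of -0.0027, beside 12.2% and -0.07 for all genes tested. *Otx2*, a homeobox factor of that state, was at 0.991, 0.871 and 1.33 RPKM in files 01 to 03 and at 9.72, 5.72 and 12.1 RPKM in files 04 to 06, a log2 difference of 2.25 between the runs. *Dnmt3b*, a DNA methyltransferase of the same state, was lower in all 3 libraries of files 04 to 06, by a log2 difference of -1.12. By label, the log2 change for Dzip3-KD was 2.28 (SE 0.61, limma adjusted p 0.302) for *Otx2* and -1.11 (SE 0.36, limma adjusted p 0.322) for *Dnmt3b*, so neither passed the threshold. *Foxd3* (0.11) and *Zic2* (-0.07) lay near 0.

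In the same contrast the trophectoderm marker *Tfap2c*, which is also expressed in mES cells, had a log2 change of 0.64 (limma adjusted p 0.388) and the neural tubulin *Tubb3* one of 0.12 (limma adjusted p 0.898). They were the genes of their lists that averaged 5 RPKM or more. Over the whole lists at an unadjusted p under 0.05, 1 of 6 trophectoderm markers was higher and 1 lower (median -0.12). Of 4 mesoderm and neural markers, 2 were higher and 0 lower (median 0.57). Of all genes tested, 5.24% were higher and 6.99% lower (median -0.07). This contrast of labels coincides with the run of file numbers. All 3 libraries of files 04 to 06 were above those of files 01 to 03 for *Nes* and *Sox1*, neural genes, and *Tfap2c*. The log2 differences were 0.88, 0.34 and 0.49. All 3 were below them for the trophectoderm genes *Krt8* (-1.14, on 2 to 25 reads) and *Ascl2* (-0.69, on 3 to 13 reads). The other tested genes of both lists overlapped between the runs. Of all genes, 13.1% were higher in all 3 libraries and 15.5% lower. Of 10 tested two-cell-like genes, 0 had an unadjusted p under 0.05 for Dzip3-KD. Log2 changes were -0.65 (SE 0.57) for *Usp17lc*, -0.72 (SE 0.51) for *Zfp352*, -0.99 (SE 0.57) for *Zscan4a* and -1.54 (SE 0.68) for *Tdpoz4*. For each of them Dzip3-KD 1 lay between the controls and Dzip3-KD 2 below both. *Zscan4a* was at 59.7 and 14.5 RPKM in Dzip3-KD 1 and 2, beside 42.3 and 84.0 RPKM in control 1 and 2. These genes have near-identical copies, so reads may be divided between them or lost.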
